A study of Mus musculus with 10 samples.

Results

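The angiopoietins and the Tie receptors were followed through 3 endothelial populations of the mouse as a set of 5 genes: the ligands Angpt1 and Angpt2, the receptors Tek (Tie2) and Tie1, and Ptprb, which encodes the receptor phosphatase VE-PTP. The members were chosen by name, as the gene symbols of this signalling system, and make up 5 of the 23284 gene symbols that were counted. Tek is a receptor tyrosine kinase of endothelial cells. Angpt1 activates it, Angpt2 acts as an antagonist or as a weak agonist depending on the context, Tie1 binds no angiopoietin with high affinity but pairs with Tek and tunes its response, and Ptprb removes phosphate from Tek and is held at endothelial junctions with VE-cadherin. The system is known for keeping blood vessels quiescent and for the growth and remodelling of lymphatic vessels, in which Angpt2 and Tie1 are both required.

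RNA was sequenced from lymph node lymphatic endothelium (LN-LEC) in 4 libraries, from lymph node blood endothelium (LN-BEC) in 3, and from the lymphatic endothelium of the diaphragm (D-LEC) in 3. All animals were untreated C57BL/6 (B6) mice of 6 to 8 weeks. Inguinal, axillary, brachial, cervical and mesenteric nodes were pooled for the LN populations, and cells were depleted of CD45+ leukocytes and sorted on CD31 and PDPN. Diaphragm tissue was treated in the same way, with mechanical disruption and enzymes ahead of the depletion and sort. Each library held cells of several pooled animals, so the spread between libraries is a spread between pools, and libraries carried no label for sorting day or batch.

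Library totals ran from 22429940 to 48906070 counted fragments, and LN-LEC replicate 4 was the deepest. The sort labels held in the data: the summed level of 6 LEC markers (Lyve1, Prox1, Pdpn, Reln, Flt4 and Mmrn1) was 134740 to 151720 normalized counts in LN-LEC, 598940 to 622970 in D-LEC and 3240 to 10199 in LN-BEC. The sum of 4 BEC markers (Flt1, Nrp1, Vwf and Notch4) was 69497 to 72713 in LN-BEC, 818 to 1374 in LN-LEC and 450 to 633 in D-LEC. Levels are normalized counts, which are fragment counts divided by a size factor for each library, unless they are called FPKM. FPKM are fragment counts scaled by exon length and by the library total of named genes, adjusted by a TMM factor (a scaling between libraries). FPKM is used wherever genes are compared with each other.

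The genes lie on 4 chromosomes of the mm9 build. Angpt1 lies at chr15:42256271-42508341 on the minus strand, with 9 exons and 4076 exon bases. Angpt2 lies at chr8:18691337-18741551 on the minus strand, with 9 exons and 2475 exon bases, within the span of Mcph1 on the opposite strand but sharing no exon base with it. Tek (chr4:94405991-94541630, plus strand, 23 exons, 4654 bases) and Tie1 (chr4:118143796-118162454, minus strand, 23 exons, 3879 bases) lie on the same chromosome. Ptprb lies at chr10:115738430-115826594 on the plus strand, with 32 exons and 11912 exon bases. The count ignored strand, and 283 exon bases of Angpt1, or 6.94% of its length, are also annotated to Gm17473 on the opposite strand, so that reads of the pair cannot be told apart there.

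The paralogs shared no stretch as long as a read, which was 100 bases. The longest stretch of identical bases between the GENCODE transcripts of each pair is shown here because it bounds how far reads could be confused, and capitals mark the identical bases.
Angpt1 and Angpt2, 17 bases: ACCATGATGATCCGGCC
Tek and Tie1, 18 bases: CACAGGGACCTGGCTGCC

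The 250 bases before the annotated start of Angpt1 and of Tie1 are shown next, read from the mm9 genome, since Angpt1 had the largest fold changes of the set and Tie1 held 6 matches. Capitals mark the letters GGAAG, the core bound by ETS factors with 1 flanking base, on either strand, with the reverse complement appearing as CTTCC.
Angpt1, chr15:42508342-42508591, minus strand: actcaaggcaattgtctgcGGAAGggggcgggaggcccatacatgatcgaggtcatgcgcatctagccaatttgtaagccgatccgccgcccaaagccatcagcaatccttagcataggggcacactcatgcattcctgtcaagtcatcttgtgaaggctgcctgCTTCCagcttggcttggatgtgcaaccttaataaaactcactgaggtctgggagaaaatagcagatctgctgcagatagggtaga
Tie1, chr4:118162455-118162704, minus strand: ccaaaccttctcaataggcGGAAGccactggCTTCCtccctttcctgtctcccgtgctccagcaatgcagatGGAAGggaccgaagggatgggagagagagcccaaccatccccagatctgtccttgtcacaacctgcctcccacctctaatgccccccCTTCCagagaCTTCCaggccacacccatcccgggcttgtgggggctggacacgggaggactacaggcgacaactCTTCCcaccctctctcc

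GGAAG occurred 6 times in the Tie1 window, 2 times in that of Angpt1, 1 time in that of Ptprb and 0 times in that of Tek, against at least 1 match in 64% of 23099 promoters of the same length. The window of Angpt2 is not described here. These matches describe the letters only.

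Angpt1 was a transcript of LN-LEC. It stood at 493, 519, 586 and 489 normalized counts in LN-LEC replicates 1 to 4, at 34.1, 19.9 and 87.2 in LN-BEC replicates 1 to 3, and at 13.9, 15.03 and 21.5 in D-LEC replicates 1 to 3. All 4 LN-LEC libraries lay far above the other 6, while LN-BEC and D-LEC overlapped, since D-LEC replicate 3 exceeded LN-BEC replicate 2. The means were 522 ± 44.8 (SD, n = 4) in LN-LEC, 47.1 ± 35.5 (n = 3) in LN-BEC and 16.8 ± 4.10 (n = 3) in D-LEC.

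LN-LEC overexpressed Angpt1 11.4-fold over LN-BEC (log2 fold change 3.51, SE 0.39, edgeR quasi-likelihood test, adjusted p = 2.6e-05) and 30.7-fold over D-LEC (log2 fold change 4.94, SE 0.44, adjusted p = 3.8e-06). Of the 15373 genes tested, 5.92% had a larger absolute log2 fold change in the first comparison and 4.26% in the second. The value against LN-BEC rested in part on LN-BEC replicate 3, without which the log2 fold change was 4.27. The lower level of D-LEC relative to LN-BEC (log2 fold change -1.43, SE 0.47, adjusted p = 0.027) was not called without LN-BEC replicate 3 (-0.66, adjusted p = 0.076), without D-LEC replicate 1 (-1.32, adjusted p = 0.095) or without D-LEC replicate 2 (-1.34, adjusted p = 0.083). Over 18 alternative analyses of that difference the adjusted p ran from 0.0011 to 0.1.

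The Angpt1 level of the LN-BEC libraries moved with their content of lymphatic transcripts. The median of the 6 LEC markers, as a percent of the LN-LEC mean, was 2.54 in LN-BEC replicate 1, 1.05 in replicate 2 and 6.06 in replicate 3, and Angpt1 was at 6.54, 3.81 and 16.7 percent of its LN-LEC mean in the same libraries. Replicate 3 was highest and replicate 2 lowest in both measures, and the part of lymphatic transcripts in the LN-BEC level of Angpt1 was not tested. In bulk RNA, fewer cells of a type and less RNA per cell cannot be told apart.

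Angpt1 is also made by mural cells and by platelets, and markers of both differed between the populations. The summed level of 10 pericyte and smooth muscle markers was 4676 to 6918 normalized counts in LN-LEC against 7559 to 9595 in LN-BEC and 2053 to 2304 in D-LEC. Rgs5 held the largest part of the LN sums, with means of 3856 in LN-LEC and 4392.5 in LN-BEC. Abcc9 and Kcnj8, at 935 and 840, held the largest parts in D-LEC. Pdgfrb, Cspg4 and Notch3 were far lower in LN-LEC, at 91.3, 2.99 and 87.5. They stood at 339, 50.9 and 500 in LN-BEC and at 34.7, 3.52 and 17.8 in D-LEC. Of the 10 markers, 8 were called in LN-LEC versus LN-BEC, 1 with the higher level in LN-LEC and 7 in LN-BEC. Of all genes 38.2% were called there, 19.8% higher in LN-LEC and 18.4% in LN-BEC. Between LN-LEC and D-LEC 8 were called, 7 with the higher level in LN-LEC and 1 in D-LEC, among them Rgs5 at 3856 against 66.4 and Myh11 at 124 against 16.8. Of all genes 45.8% were called there, 24% higher in LN-LEC and 21.7% in D-LEC. Most of the called mural markers thus moved with Angpt1 against D-LEC and in the other direction against LN-BEC.

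The sum of 4 platelet and megakaryocyte markers was 967 to 1195 normalized counts in LN-LEC against 1257 to 1823 in LN-BEC and 101 to 233 in D-LEC. Gp1ba, a platelet adhesion receptor, had the same order as Angpt1, with means of 217 in LN-LEC against 32.7 in LN-BEC and 15.3 in D-LEC. The platelet chemokine Pf4 stood at 861 in LN-LEC against 1528 in LN-BEC and 74.4 in D-LEC. Ppbp stood at 2.36, 20.8 and 55.55. Gp9 was near 0 throughout, at 0, 0.868 and 4.78. The 7 fibroblast and reticular cell markers summed to 4507 to 8900 in LN-LEC against 2657 to 9847 in LN-BEC and 3185 to 9978 in D-LEC, ranges that overlapped. The part of mural cells, platelets and fibroblasts in the level of Angpt1 was not tested.

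Angpt2 was a transcript of all 3 populations with its highest level in D-LEC. It stood at 1336, 1339, 1545 and 1874 normalized counts in LN-LEC replicates 1 to 4, at 1022, 1227 and 1280.3 in LN-BEC replicates 1 to 3, and at 4983.5, 4162 and 4299.9 in D-LEC replicates 1 to 3. No D-LEC library overlapped another population, and the LN-LEC libraries lay just above the LN-BEC libraries. D-LEC overexpressed Angpt2 2.89-fold over LN-LEC (log2 fold change of LN-LEC against D-LEC -1.53, SE 0.13, adjusted p = 2.8e-07) and 3.79-fold over LN-BEC (log2 fold change 1.92, SE 0.14, adjusted p = 6.3e-08).

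Between the LN populations the Angpt2 difference was small. LN-LEC exceeded LN-BEC 1.31-fold (log2 fold change 0.39, SE 0.13, 95% CI 0.12 to 0.67, adjusted p = 0.027), and 52.4% of tested genes had a larger absolute log2 fold change. The call was lost without LN-LEC replicate 3 (0.38, adjusted p = 0.055), without LN-LEC replicate 4 (0.27, adjusted p = 0.07) or without LN-BEC replicate 1 (0.30, adjusted p = 0.12), and its adjusted p ran from 0.02 to 0.12 over 18 alternatives. Angpt2 and Angpt1 thus had opposite orders in the LEC of the 2 tissues.

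Skeletal muscle and mesothelial transcripts were also higher in the D-LEC libraries. The 8 skeletal muscle markers summed to 986 to 1388 normalized counts in D-LEC, 31.4 to 53.3 in LN-LEC and 82.2 to 104 in LN-BEC, and 4 mesothelial markers to 488 to 1537, 15.8 to 53.1 and 9.51 to 92.8. The part of these cells in the D-LEC level of Angpt2 was not tested.

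**Figure D1:**
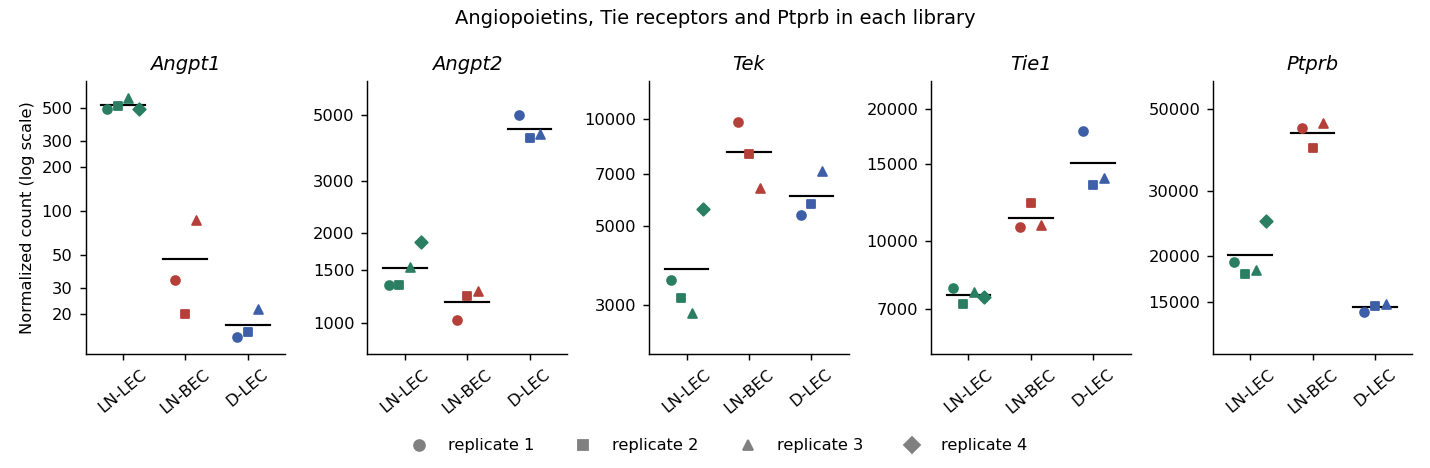
Normalized count (log scale, a separate axis for each gene) of the 5 genes in each of the 10 libraries, with a horizontal line at the mean of each population and a marker shape for each replicate number. Angpt1 is high in the 4 LN-LEC libraries, Angpt2 in the 3 D-LEC libraries and Ptprb in the 3 LN-BEC libraries, and LN-LEC replicate 4 (diamond) lies above the other LN-LEC libraries for Tek, at 5612.

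The receptor Tek was lowest in LN-LEC. It stood at 3536, 3153, 2848 and 5612 normalized counts in LN-LEC replicates 1 to 4, at 9842, 7989 and 6411 in LN-BEC replicates 1 to 3, and at 5379.5, 5760.1 and 7148 in D-LEC replicates 1 to 3. LN-LEC and LN-BEC did not overlap, whereas D-LEC overlapped LN-BEC and, through LN-LEC replicate 4 alone, LN-LEC. LN-BEC overexpressed Tek 2.11-fold over LN-LEC (log2 fold change of LN-LEC against LN-BEC -1.08, SE 0.24, adjusted p = 0.0056).

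Tek was 1.58-fold higher in D-LEC than in LN-LEC, close to the limit of the test (log2 fold change of LN-LEC against D-LEC -0.66, SE 0.24, 95% CI -1.21 to -0.12, adjusted p = 0.048). Without LN-LEC replicate 4 the difference was larger (-0.92, adjusted p = 0.00057). It was not called without any single one of LN-LEC replicates 1 to 3, LN-BEC replicate 2 or D-LEC replicates 1 to 3, with values of -0.75 to -0.53, and its adjusted p ran from 3.5e-05 to 0.16 over 18 alternatives. Between D-LEC and LN-BEC the log2 fold change of -0.41 (SE 0.26, 95% CI -0.99 to 0.17, adjusted p = 0.22) was not called. Without LN-LEC replicate 4, which belongs to neither population and enters through the shared fit, the same value of -0.41 had an adjusted p of 0.049. The adjusted p of that difference ran from 0.0056 to 0.52 over 18 alternatives.

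LN-LEC replicate 4 also had the highest content of blood endothelial transcripts among the LN-LEC libraries. The median of the 4 BEC markers was 1.91, 1.38, 1.33 and 2.38 percent of the LN-BEC mean in LN-LEC replicates 1 to 4, against Tek at 43.8, 39.0, 35.2 and 69.4 percent of its LN-BEC mean. The BEC median and Tek had the same order of the 4 libraries, with replicate 4 highest, followed by 1, 2 and 3. The summed BEC markers, at 1305, 818, 866 and 1374 normalized counts in replicates 1 to 4, had replicate 3 above replicate 2 instead. The part of blood endothelial transcripts in the LN-LEC level of Tek was not tested.

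Tie1, the other receptor, was lowest in LN-LEC, intermediate in LN-BEC and highest in D-LEC. It stood at 7832, 7193, 7657 and 7455 normalized counts in LN-LEC replicates 1 to 4, at 10763, 12189 and 10900 in LN-BEC replicates 1 to 3, and at 17792, 13448 and 13886 in D-LEC replicates 1 to 3. The 3 ranges did not overlap, and the LN-LEC libraries were the most alike (7534 ± 275, SD, n = 4). Relative to LN-LEC, Tie1 was 1.48-fold higher in LN-BEC (log2 fold change of LN-LEC against LN-BEC -0.57, SE 0.10, adjusted p = 0.00037) and 1.96-fold higher in D-LEC (LN-LEC against D-LEC -0.97, SE 0.10, adjusted p = 2.2e-06). D-LEC exceeded LN-BEC 1.33-fold (0.41, SE 0.11, adjusted p = 0.006). All 3 Tie1 differences kept their call in each of 18 alternatives.

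Ptprb, the phosphatase of Tek, was highest in blood endothelium. It stood at 19244, 17839, 18277 and 24783 normalized counts in LN-LEC replicates 1 to 4, at 44424, 39039 and 45723 in LN-BEC replicates 1 to 3, and at 14075, 14624 and 14779 in D-LEC replicates 1 to 3. The populations did not overlap. LN-BEC overexpressed Ptprb 2.13-fold over LN-LEC (log2 fold change of LN-LEC against LN-BEC -1.09, SE 0.11, adjusted p = 3.9e-06) and 2.98-fold over D-LEC (D-LEC against LN-BEC -1.58, SE 0.13, adjusted p = 1.8e-07). LN-LEC in turn exceeded D-LEC 1.4-fold (0.49, SE 0.12, adjusted p = 0.0037), so that the phosphatase and both receptors did not share 1 order of the populations. These Ptprb calls held in each of 18 alternatives.

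**Figure D2:**
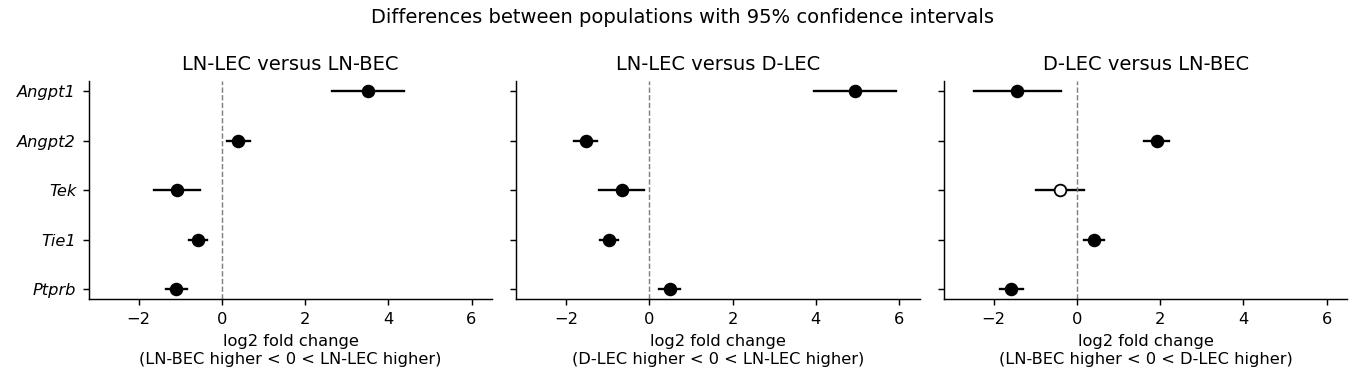
log2 fold change of each gene in the 3 comparisons between populations, as points with 95% confidence intervals from the edgeR fit, filled where the adjusted p was under 0.05. Tek in D-LEC versus LN-BEC, at -0.41, is the open point, and the Angpt1 values of 3.51 and 4.94 over LN-BEC and D-LEC are the farthest from 0.

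Counted over the set, 5 of 5 members were called between LN-LEC and LN-BEC, where 38.2% of all tested genes were called. LN-LEC had the higher level for 2 of them, beside 19.8% of all genes, and LN-BEC for 3, beside 18.4%. The libraries of these populations did not overlap for any of the 5, as for 44.9% of all genes. Between LN-LEC and D-LEC 5 of 5 were called beside a background of 45.8%, 2 of them with the higher level in LN-LEC (24% of all genes) and 3 in D-LEC (21.7%), and 4 of the 5 did not overlap (50% of all genes), Tek being the exception. Between D-LEC and LN-BEC 4 of 5 were called beside a background of 48%, 2 with the higher level in D-LEC (22.4%) and 2 in LN-BEC (25.6%), and 3 of the 5 did not overlap (56%). The median absolute log2 fold change of the members was 1.08, 0.97 and 1.43 in these comparisons, against 0.43, 0.51 and 0.58 over all tested genes. The comparisons share libraries and are not independent of each other.

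Expressed per length, the mean levels of the receptors exceeded those of the ligands in the LN populations. In LN-LEC the mean FPKM was 65.6 ± 2.23 (SD, n = 4) for Tie1, 56.8 ± 9.05 for Ptprb, 27.5 ± 9.03 for Tek, 20.8 ± 3.45 for Angpt2 and 4.33 ± 0.380 for Angpt1. In LN-BEC it was 121 ± 8.78 (SD, n = 3) for Ptprb, 97.3 ± 7.68 for Tie1, 58.1 ± 12.7 for Tek, 15.9 ± 1.80 for Angpt2 and 0.384 ± 0.285 for Angpt1. In D-LEC it was 129 ± 19.8 (SD, n = 3) for Tie1, 60.3 ± 5.57 for Angpt2, 43.7 ± 6.82 for Tek, 40.6 ± 1.25 for Ptprb and 0.137 ± 0.0340 for Angpt1. By these means Angpt2 was below Tie1 alone in D-LEC, and below Tie1, Ptprb and Tek in the LN populations. In LN-LEC replicate 3, Angpt2 was slightly above Tek, at 21.1 against 20.7 FPKM. In LN-LEC the neighbours Tie1 and Ptprb, and Tek and Angpt2, were within the spread of their libraries, as were Tek and Ptprb in D-LEC.

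The place of these levels among the named genes with any count tells how abundant each transcript was. By percentile of FPKM, Tie1 lay at 93.9 in LN-LEC against 96.1 in LN-BEC and 97.0 in D-LEC. Angpt1 lay at percentile 53.3 in LN-LEC, and at 28.3 and 25.6 in LN-BEC and D-LEC. VE-cadherin (Cdh5), the junction partner of Ptprb, stood at 227 ± 10.9 FPKM in LN-LEC against 400.4 ± 28.2 in LN-BEC and 251 ± 23.5 in D-LEC.

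**Figure D3:**
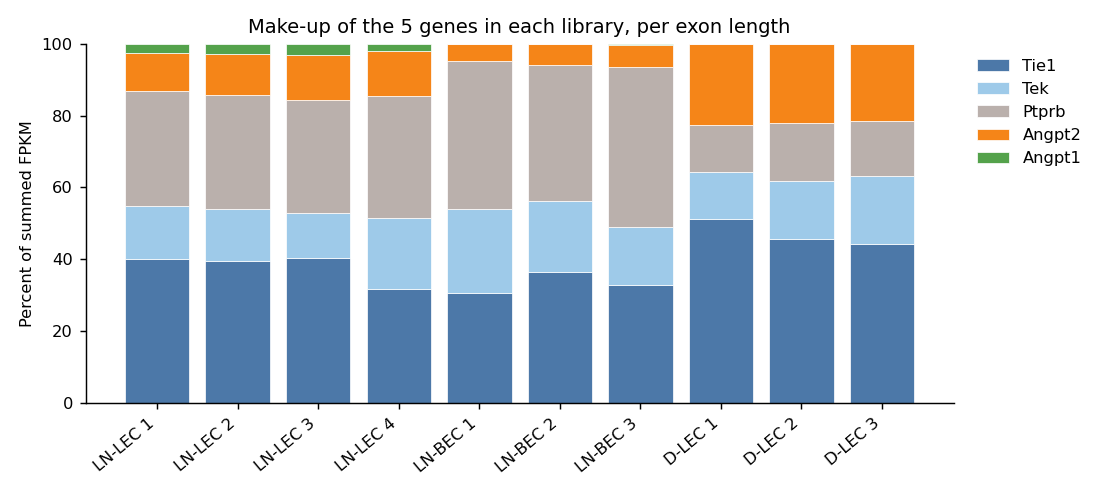
Share of each gene in the summed FPKM of the 5 genes, stacked to 100 percent for each of the 10 libraries. Angpt2 takes 21.5 to 22.5 percent in the D-LEC libraries and 4.57 to 12.8 percent in the others, and Angpt1 is visible in the LN-LEC libraries, where it takes 1.97 to 2.94 percent.

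Ratios within a library do not depend on scaling between libraries, and they separated the populations by ligand. Angpt2 exceeded Angpt1, per exon base, 4.46-, 4.24-, 4.34- and 6.31-fold in LN-LEC replicates 1 to 4, 48.7-, 99.5- and 24.1-fold in LN-BEC replicates 1 to 3, and 566-, 441- and 323-fold in D-LEC replicates 1 to 3. The geometric means were 4.77, 48.8 and 432, and no library overlapped another population. The populations differed by an exact permutation test of the F statistic of the log2 ratio, which has no direction, over 4200 arrangements of the 10 libraries (p = 0.00048, the smallest the design allows, adjusted p = 0.0014 over 3 ratios).

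The phosphatase-to-receptor ratio set D-LEC apart. Ptprb exceeded Tek per exon base by a geometric mean of 2.12 in LN-LEC and 2.11 in LN-BEC, whereas the ratio in D-LEC was 0.936, with single libraries at 1.02, 0.992 and 0.808. The lowest LN library stood at 1.73, above every D-LEC library. The exact permutation test gave p = 0.016 and an adjusted p of 0.024, which became 0.054 without LN-LEC replicate 1 or LN-LEC replicate 2, within a range of 0.006 to 0.054 when single libraries were left out.

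The Tie1 to Tek ratio had geometric means of 2.47 in LN-LEC against 1.7 in LN-BEC and 2.96 in D-LEC. The populations did not pass the test for a difference (exact permutation test, p = 0.11, adjusted p = 0.11). LN-LEC replicate 4 stood at 1.59 against 2.66, 2.74 and 3.23 in the other LN-LEC libraries, and without it the adjusted p of the exact test was 0.029, in a range of 0.029 to 0.3 over single libraries left out.

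**Figure D4:**
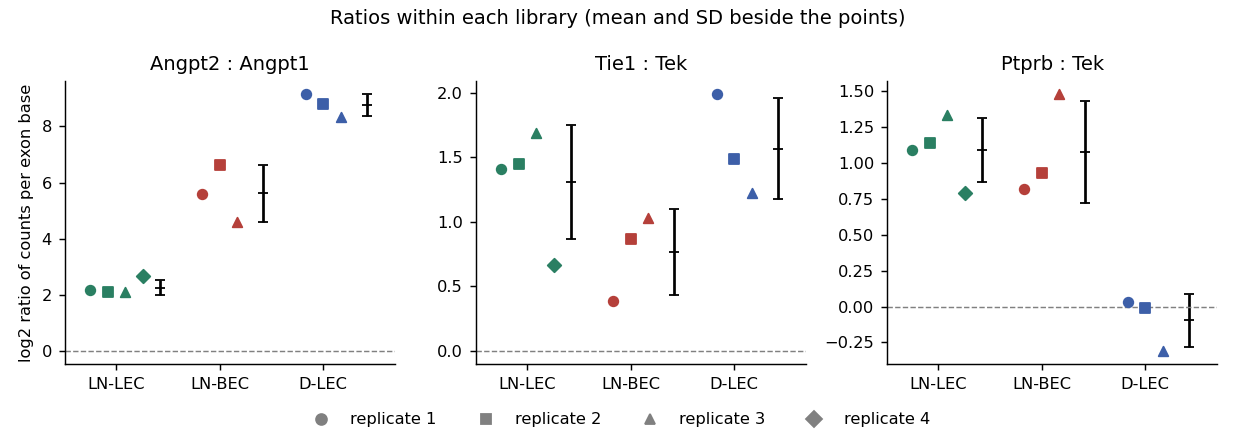
log2 ratio of counts per exon base for 3 gene pairs in each library, with the mean and SD of each population beside the points and a dashed line at equal levels. The Angpt2 to Angpt1 ratio climbs from a mean of 2.25 in LN-LEC to 8.76 in D-LEC on the log2 scale, and the Ptprb to Tek ratio is near 0 in D-LEC, at -0.10.

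The genes whose levels over the 10 libraries were most like those of the members are given as a description, ranked by Pearson's r of log2 levels among 11106 genes. The 10 libraries fall into 3 populations, which all of these values share. Closest to Angpt1 were Slc18a1, a vesicular monoamine transporter (r = 0.997), Tectb (r = 0.996) and Cadps (r = 0.995), and Slc18a1 stood at 1909 normalized counts in LN-LEC against 44.1 in LN-BEC and 8.41 in D-LEC. Closest to Angpt2 were Hsd3b7, Pacsin2 and Echdc3 (r = 0.993 to 0.995). Closest to Ptprb were Gja5, the arterial gap junction protein connexin 40 (r = 0.996), Pcdh19 (r = 0.990) and Mob3b (r = 0.989), and Gja5 stood at 1016 in LN-BEC and 14.1 in LN-LEC. Closest to Tie1 were Dgkz, Il11ra1 and Fam65a (r = 0.986 to 0.992), and closest to Tek were Nedd9, Plk2 and Id2, at lower values (r = 0.942 to 0.952).

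Among the related ligands, Angpt4, the third angiopoietin of the mouse, had at most 2 fragments in any LN-LEC library and 0 in every LN-BEC and D-LEC library. A count of 0 allows up to 3 fragments, which is 0.0613 to 0.134 CPM (counts scaled by library total) over the libraries. Of 6 angiopoietin-like ligands tested, 2 were called between LN-LEC and LN-BEC, both higher in LN-LEC. Of all genes 38.2% were called there, 19.8% with the higher level in LN-LEC. Angptl4, an inhibitor of lipoprotein lipase, was at a mean of 2199 normalized counts against 771 (log2 fold change 1.53, SE 0.32, adjusted p = 0.0043). Against D-LEC, Angptl4 was 11.3-fold higher in LN-LEC (adjusted p = 4.4e-05), while Angptl1 was 4.62-fold higher in D-LEC, at 184 against 39.4 (adjusted p = 6.6e-05), and 3 of 6 were called beside a background of 45.8%. Between D-LEC and LN-BEC 4 of 6 were called, 3 higher in D-LEC and 1 in LN-BEC, beside 48% of all genes (22.4% and 25.6% by direction).

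Of 13 adaptors and enzymes that act next to the Tie receptors, 6 were called between LN-LEC and LN-BEC (2 higher in LN-LEC), 5 between LN-LEC and D-LEC (2 higher in LN-LEC) and 7 between D-LEC and LN-BEC (3 higher in D-LEC). As shares these were 46.2%, 38.5% and 53.8%, beside 38.2%, 45.8% and 48% of all genes. Of all genes 19.8%, 24% and 22.4% were called with the higher level in the population named first. The adaptor Shc1 stood at 8789 normalized counts in LN-LEC against 4065 in LN-BEC and 25965 in D-LEC. It was 6.35-fold higher in D-LEC than its LN-BEC level (log2 fold change 2.67, SE 0.15, adjusted p = 6.7e-09). Grb14, which binds Tek and the insulin receptor, had a mean of 2.96 in LN-LEC against 48.0 in LN-BEC and 62.4 in D-LEC (adjusted p = 5.3e-06 and 1.9e-06). LN-LEC exceeded LN-BEC 5.06-fold in Grb7, at 152 against 30.6 (adjusted p = 0.00056).

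Downstream of Tek, kinases of the AKT family and FOXO factors were called about as often as all genes. Of 11 genes 4, 6 and 5 were called in LN-LEC versus LN-BEC, LN-LEC versus D-LEC and D-LEC versus LN-BEC (36.4%, 54.5% and 45.5%, beside 38.2%, 45.8% and 48% of all genes). The third count was 3 without LN-BEC replicate 1. Foxo1, the factor that AKT keeps out of the nucleus and a known activator of Angpt2, stood at 5553 normalized counts in LN-LEC against 6940 in LN-BEC and 8503 in D-LEC, 1.51-fold higher in D-LEC than in LN-LEC (adjusted p = 4e-05).

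Genes that FOXO factors are known to activate moved in both directions. Of 14, 8 were called between LN-LEC and LN-BEC (5 higher in LN-LEC), 8 between LN-LEC and D-LEC (5 higher in LN-LEC) and 12 between D-LEC and LN-BEC (6 in each direction), shares of 57.1%, 57.1% and 85.7% beside 38.2%, 45.8% and 48% of all genes. By direction, the shares of all genes were 19.8% higher in LN-LEC and 18.4% in LN-BEC, 24% in LN-LEC and 21.7% in D-LEC, and 22.4% in D-LEC and 25.6% in LN-BEC, in the order of these comparisons. Pdk4, a regulator of pyruvate use, was at 583 normalized counts in LN-LEC against 654 in LN-BEC and 73.1 in D-LEC. Irs2, an insulin receptor substrate, was at 109, 24.3 and 5.66. LN-BEC exceeded LN-LEC 4.67-fold in the insulin receptor Insr (8087 against 1713, adjusted p = 4.2e-09).

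Of 12 surface and matrix partners and sheddases, 8 were called between LN-LEC and LN-BEC (4 in each direction), 8 between LN-LEC and D-LEC (1 higher in LN-LEC, 7 in D-LEC) and 9 between D-LEC and LN-BEC (6 higher in D-LEC), shares of 66.7%, 66.7% and 75% beside 38.2%, 45.8% and 48% of all genes. For the 1 against 7 of LN-LEC versus D-LEC, the shares of all genes by direction were 24% and 21.7%. In D-LEC versus LN-BEC they were 22.4% higher in D-LEC and 25.6% in LN-BEC. The integrin subunits Itgav and Itgb3, which can bind Angpt2, and the membrane protease Mmp14, which can cleave Tek, were lowest in LN-BEC. Mmp14 stood at 3720 normalized counts in LN-LEC against 952 in LN-BEC and 6077 in D-LEC. Itgb3 stood at 1722, 553 and 2733. LN-BEC exceeded LN-LEC 1.77-fold in Cdh5 (adjusted p = 8.5e-06), and the log2 fold change of -0.14 between LN-LEC and D-LEC was not called (adjusted p = 0.24). Svep1, a matrix ligand of Tie1, was not called in any comparison, with means of 106 ± 40.3 in LN-LEC against 127 ± 90.2 in LN-BEC and 60.3 ± 43.9 in D-LEC.

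The other R3 receptor phosphatases, the class that holds Ptprb, were scarce. Ptprh was at 0 in every library, and Ptprq was at 0 in every LN-LEC library with a mean of 11.5 normalized counts in D-LEC. Ptprj followed the order of Ptprb, at 405 in LN-BEC, 114 in LN-LEC and 34.8 in D-LEC. LN-BEC exceeded LN-LEC 3.52-fold (log2 fold change of LN-LEC against LN-BEC -1.82, SE 0.19, adjusted p = 2.9e-06) and D-LEC 11.8-fold (log2 fold change of D-LEC against LN-BEC -3.56, SE 0.23, adjusted p = 1.8e-08). Of the 3 genes tested, 1, 2 and 2 were called in LN-LEC versus LN-BEC, LN-LEC versus D-LEC and D-LEC versus LN-BEC, shares of 33.3%, 66.7% and 66.7% beside 38.2%, 45.8% and 48% of all genes. The last count was 1 without LN-BEC replicate 2, LN-BEC replicate 3, D-LEC replicate 1 or D-LEC replicate 3, and 3 without D-LEC replicate 2.

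Of 10 transcription factors tied to Angpt2 or Tek, 8 were called between LN-LEC and LN-BEC (2 higher in LN-LEC), 7 between LN-LEC and D-LEC (4 higher in LN-LEC) and 9 between D-LEC and LN-BEC (3 higher in D-LEC), shares of 80%, 70% and 90% beside 38.2%, 45.8% and 48% of all genes. The shares of all genes higher in the population named first were 19.8%, 24% and 22.4%. The list was chosen with earlier results of these data known, so its shares are a description. Foxc2, a factor of lymphatic valves that is known to activate Angpt2, stood at 8548 normalized counts in LN-LEC against 684 in LN-BEC and 14519 in D-LEC. It was 21.2-fold higher in D-LEC than its LN-BEC level (log2 fold change 4.41, SE 0.40, adjusted p = 2.1e-05), and its log2 fold change of -0.74 between LN-LEC and D-LEC was not called (adjusted p = 0.09). Epas1, a hypoxia-inducible factor that is known to activate Tek, was 6.05-fold above LN-LEC in LN-BEC, at 48248 against 7892 (adjusted p = 2.1e-10). The flow-responsive factors Klf2 and Klf4 were lowest in LN-LEC, at 2934 and 7071 against 11154 and 32894 in D-LEC.

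**Figure D5:**
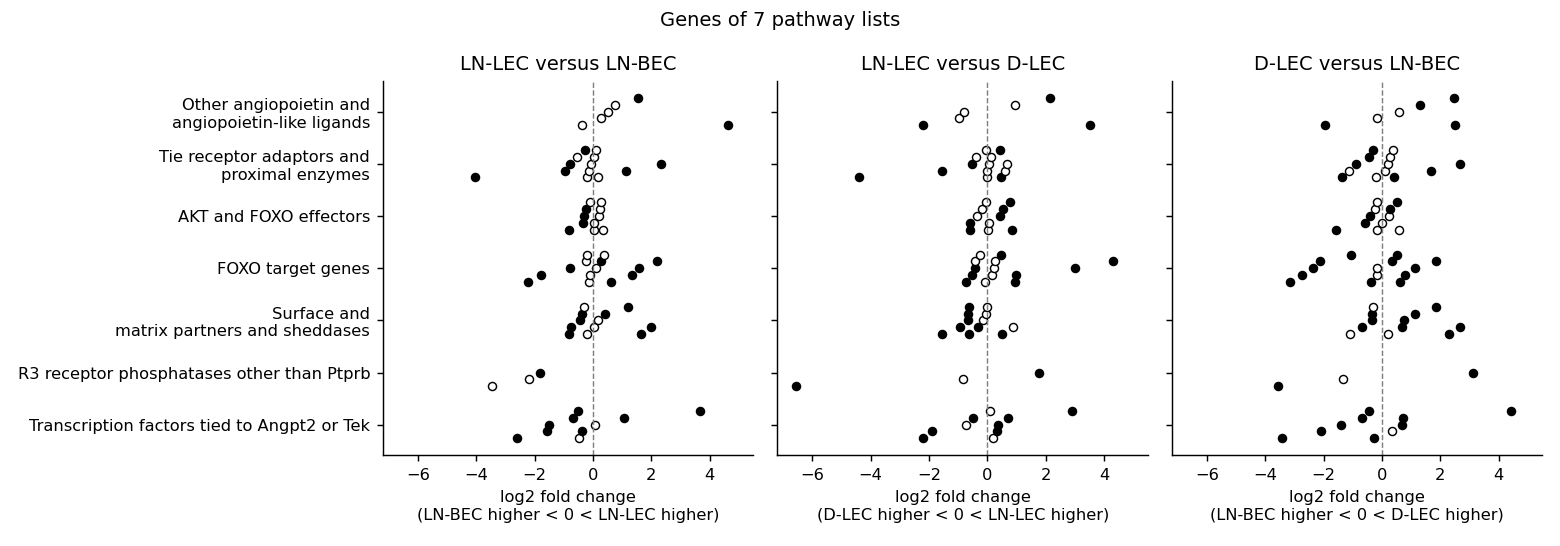
log2 fold change of each tested gene of the 7 pathway lists in the 3 comparisons, filled where the adjusted p was under 0.05. Points of most lists lie on both sides of 0. Foxc2 at 4.41 is the farthest to the right in D-LEC versus LN-BEC, and Ptprq, at 0 counts in LN-LEC, is the farthest to the left in LN-LEC versus D-LEC.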

How the data were processed

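Per the labels and the study's methods, the authors aligned paired reads with STAR (genome build mm9) and summed exonic fragments by gene symbol in featureCounts 1.4.4, ignoring strand. The deposited values are these raw counts for 23284 symbols in 10 libraries, beside each gene's exon length. RNA had been amplified before sequencing.

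Populations came from the sample labels. The members and gene lists were chosen with earlier results of these data known. Their shares of called genes, set beside those of all genes, are therefore a description and no test. Counts were divided by DESeq2 1.42.0 size factors for levels. Predicted and clone-named symbols (3755) were left out, and 15373 genes whose mean level reached 1 normalized count in any population were tested. The test was that of edgeR 4.0.16 under R 4.3.3 (TMM factors, robust quasi-likelihood fit of all 10 libraries, two-sided, Benjamini-Hochberg adjustment over all tested genes, called under 0.05). The fit was also run on counts simulated from the spread that edgeR estimated here. Such counts carry no outlying library, so that run does not tell how the fit suits the real ones. Ratios were tested by exact permutation on log2 counts per exon base, after 0.5 was added to each count. List genes were named when among the 3 largest called, non-overlapping changes of a list in a comparison, or at or near 0. Cdh5 was named as the junction partner of Ptprb, and Svep1, Itga5 and Itgb1 after their values were seen. Promoters were read from the mm9 genome and GENCODE vM1. All 12 replicate pairs differed by more than counting noise (chi-square per gene 10.0 to 370). The highest values were those of LN-BEC replicate 3 against replicates 1 and 2 (296 and 370). Next were those of LN-LEC replicate 4 against replicates 1 to 3 (113, 125 and 147), and every other pair was at 10 to 39.6. Alternatives were other scalings, filters, DESeq2, fits of only 2 populations, and libraries left out. Libraries were left out singly, and LN-BEC replicate 3 and LN-LEC replicate 4 also together. Some list genes and 1 promoter are not reported here.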

Additional observations from a re-analysis of the deposited data

Results flagged for a closer look

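The Angpt2 to Angpt1 ratio of LN-LEC replicate 4 stood apart from the other LN-LEC libraries. Its log2 ratio was 2.66 (2.657 before rounding) against 2.16, 2.09 and 2.12 in replicates 1 to 3, a gap that took most of the range of the group. Chance gives such a gap in about 1 of 20 groups of this size, and 16 groups were examined. The same library had the highest Tek, Angpt2 and Ptprb levels of the LN-LEC libraries, and 2.38 percent of the LN-BEC level of the BEC markers. It was also the most deeply sequenced.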

How the results depend on the processing

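Among the members, Angpt1 and Angpt2 in LN-LEC versus D-LEC, Tie1 and Ptprb in all comparisons, Tek and Angpt1 in LN-LEC versus LN-BEC, and Angpt2 in D-LEC versus LN-BEC kept direction and call in each of 18 alternatives. No result reversed, and other scalings moved the median of all genes by at most 0.03 in size on the log2 scale. The log2 fold change of Tek in LN-LEC versus D-LEC was -0.67 (adjusted p = 0.055) with no filter on low counts and -0.68 (0.054) when only those populations were fitted, and ran from -0.92 to -0.53 with single libraries left out. Angpt1 in D-LEC versus LN-BEC was -1.44 (0.062) with only those populations fitted, -0.63 (0.1) without both LN-BEC replicate 3 and LN-LEC replicate 4, and -1.79 to -0.66 with single libraries left out. Without both of these libraries Tek in D-LEC versus LN-BEC was -0.53 (0.0056) and the range of mean log2 Tie1 to Tek ratios across populations was 0.93 (exact permutation test, 0.032). With single libraries left out these were -0.56 to -0.25 and 0.59 to 0.97, Angpt2 in LN-LEC versus LN-BEC was 0.27 to 0.45, and the range of log2 Ptprb to Tek ratios was 1.08 to 1.28. The cause of these changes was not tested. Of R3 phosphatases, 1 rather than 2 was called between D-LEC and LN-BEC with DESeq2.

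No paired analysis was possible because the labels carry no replicate numbers shared between populations. Counts of 11 to 26 fragments for Angpt1 in D-LEC limited the precision of its fold changes there, and p-values measure the spread between pooled libraries.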
